A study of Gallus gallus with 13 samples.

Results

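Confluent and serum-starved chicken embryo fibroblasts were compared with cycling ones over the 6 arrays labelled with these conditions, 3 of each, out of 13 arrays in the series. All cells were primary cultures from White Leghorn embryos at day 10, used before passage 10 and kept at 41.5 °C, and total RNA of each culture (15 µg, RNA integrity 9.7 or better) was hybridised to 1 Affymetrix chicken array. Cycling cells were harvested in log-phase growth in medium with 5% serum. The doubly arrested cells were first grown until they covered the dish and then kept in medium without serum (0% serum). The 7 remaining arrays entered the estimate of spread behind every test, and served to set the double arrest against each arrest alone. They were 4 from confluent cells given fresh medium with 5% serum and 3 from growing cells moved to medium without serum. The basal medium, shared by all groups, contained insulin. How long the cells stayed confluent or without serum is not given in the sources used here, nor is it stated that replicates derive from different embryos. The p-values thus reflect variation among these cultures, and 3 arrays a group limit the precision of every value.

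Normal fibroblasts leave the cell cycle when they touch their neighbours on all sides and when growth factors are withdrawn, and either state, quiescence, can be reversed. Serum supplies the growth factors that act through the ERK and PI3K pathways. The first pathway drives the immediate early genes, and the second keeps FOXO transcription factors out of the nucleus and sustains ribosome production. Crowding acts through cell contacts and the Hippo pathway, which restrains the coactivator YAP. In quiescent cells the cyclin-dependent kinase inhibitors and the pocket proteins hold the E2F genes of DNA replication and the later genes of mitosis in check.

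Each probe set has a signal on a linear intensity scale. Changes are given as a difference of group means of log2(signal + 16), a scale that understates the change of dim genes. The value after ± is a moderated standard error, from a spread shared by all 4 groups. It is thus not the spread of the 2 groups compared, and can be wide where both are tight, as for KRT7 below. The offset shapes the change of a gene whose mean in 1 group lies under 22.7, the lowest mean signal that was tested; among the genes named further below this holds for ABCA1, ACSL5, ADAMTSL3, LMX1B, TLR2A, FGA, SH2B1 and ATP6V1G3, and for FBLN5 in its comparison with contact-inhibited cells. A gene is said to rise or fall only where limma's moderated test, adjusted over all 28270 tested probe sets, passed a threshold of 0.05. Signals of single arrays are given in the order of replicates 1, 2 and 3. Transcripts in bulk cultures give a share of RNA: fewer cells that carry a transcript and less of it per cell cannot be told apart.

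Some differences between the arrays are not named in the labels. Signals of 22 probe sets of the female-specific W chromosome averaged 7.07 to 7.12 on the log2 scale in the cycling arrays and 6.11 to 6.16 in the confluent and starved arrays, without overlap. Embryo sex is not given in the labels. Between these 6 arrays the W-linked level, and any difference in the sex or source of the cells, cannot be told apart from the condition. As a covariate over all 13 arrays, where its effect rests mainly on 1 contact-inhibited and 1 serum-starved array, it widened the standard errors by a median factor of 1.51, and list counts against cycling cells are also given with it. Z-linked genes differed slightly in the other direction, with a median change of 0.09 over 546 genes against 0.02 over 10793 autosomal genes. Cycling replicate 3 stood apart from the other cycling arrays: it was at least 2-fold from their mean at 2753 probe sets, whereas cycling replicates 1 and 2 differed that much at 70. Its actin 3′/5′ signal ratio was 2.41, against 1.27 to 1.89 on the other 12 arrays, of which confluent and starved replicate 3 had the highest. Of the 193 named genes that rose or fell, 188 did so without that array as well, and the exceptions are given with their genes. Contact-inhibited replicate 1 also stood apart from its group. Its correlations with the other contact-inhibited arrays were 0.957 to 0.964, against 0.986 to 0.991 among those. Its W-linked level was 6.28, against 7.19 to 7.30 in those. Median signal per array lay between 52.1 and 68.9.

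In the confluent and starved cells 4959 of 28270 probe sets (17.5%) were higher and 3431 (12.1%) lower than in cycling cells. At least 2-fold changes made up 1902 and 952 of these, and at least 4-fold changes 247 and 157. Without cycling replicate 3 the counts were 4291 and 3205, and 3174 and 1656 when the W-linked level was a covariate. A fit of the compared arrays alone gave 4057 and 3097. The split leans on the scaling of the arrays: 59.1% of the calls were higher as deposited, 48.8% with medians of arrays made equal and 49.1% after quantile normalization. Over 11498 genes, each represented by its probe set of highest mean, 2134 rose (18.6%) and 1854 fell (16.1%), with a median change of 0.02. These shares are the background for the gene lists below. The lists and their members were chosen with earlier results of these data known, so their shares are a description. The signals of all 3 confluent and starved arrays lay above all 3 cycling arrays at 7277 probe sets (25.7%) and below them at 5655 (20.0%).

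**Figure D1:**
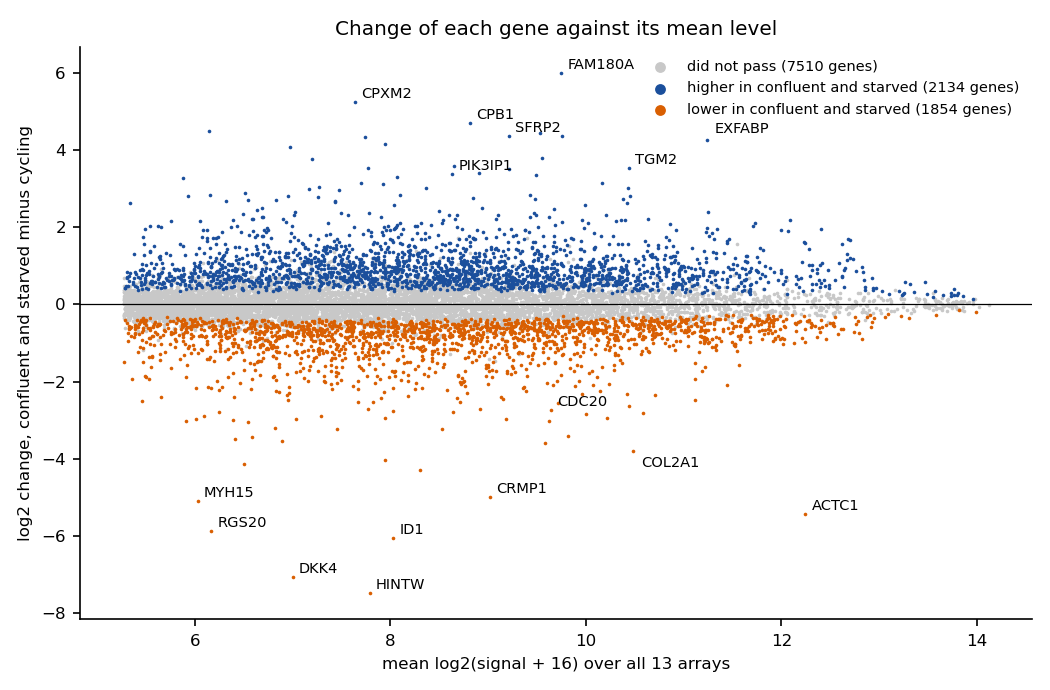
Each point is 1 of 11498 genes: the horizontal axis is its mean log2(signal + 16) over 13 arrays, the vertical axis its log2 change from cycling (3 arrays) to confluent and starved cells (3 arrays). Blue points (2134) rose and orange points (1854) fell by limma's adjusted test, and the labelled genes include FAM180A at 5.99 and DKK4 at -7.05.

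Several genes for secreted proteins were among those that rose furthest. FAM180A had a signal of 23.4, 15.8 and 20.9 in the cycling arrays and 2239, 2202 and 2367 in the confluent and starved arrays, a change of 5.99 ± 0.16 (limma adjusted p = 8.40e-11). Its mean went from a level under the filter to a high one, and the 3 arrays of each group lay close together. CPB1, carboxypeptidase B, stood at 81.2, 81.7 and 107 in cycling and 3212, 2772 and 2275 in confluent and starved arrays (4.7 ± 0.25, limma adjusted p = 4.96e-08). Its relative CPXM2 was at 24.7, 25.1 and 14 and then at 2172, 1535 and 772 (5.23 ± 0.40). The groups were far apart for both carboxypeptidase genes, although CPXM2 varied among the confluent and starved arrays. The secreted Wnt modulator SFRP2 had 114, 105 and 91 in cycling and 2360.4, 2236 and 2665 in confluent and starved arrays (4.35 ± 0.18). EXFABP, a lipocalin of the extracellular fluid, went from 312, 216 and 205 to 4516, 4843 and 5403 (4.26 ± 0.21). Neither gene had a cycling array near the confluent and starved ones.

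Matrix-associated genes made up several more of the 12 highest. TIMP4, an inhibitor of metalloproteinases, rose by 4.44 ± 0.45 on 1 of its 2 probe sets, and the other did not pass. The calcium-binding matrix protein SMOC1 rose by 4.37 ± 0.53, and fibulin 5 (FBLN5), which helps to assemble elastic fibres, by 3.76 ± 0.30. COCH, a matrix protein best known from the inner ear, rose by 4.33 ± 0.38 and the leucine-rich repeat gene LRRC17 by 3.8 ± 0.22. For TIMP4 and SMOC1 cycling replicate 3 was the lowest cycling array, and without it they rose by 3.82 and 3.79. CUTAL was at 0 to 0.02 in the cycling arrays and at 299, 376 and 358 in the confluent and starved arrays, and its fitted change of 4.49 depends on the offset. GATD3AL2 completed the group with 4.15 ± 0.32. The cycling means of FAM180A, CPXM2, CUTAL, COCH and GATD3AL2 lay under 22.7.

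The genes that fell furthest included a Wnt antagonist, a BMP target and genes of contractile and skeletal tissues. DKK4, a secreted inhibitor of Wnt signalling, had 4474, 5655 and 4367 in the cycling arrays and 27.3, 32.6 and 6.72 in the confluent and starved arrays (-7.05 ± 0.26, limma adjusted p = 1.68e-09). ID1, which binds helix-loop-helix factors and keeps them off DNA, went from 4671, 6008 and 6325 to 67.6, 62.5 and 77.4 (-6.05 ± 0.17, limma adjusted p = 8.40e-11). Both were bright in each cycling array; in the confluent and starved arrays ID1 was near the median signal of an array and DKK4 below it. RGS20, a regulator of G protein signalling, had 1477, 1759 and 1481 against 9.44, 12.6 and 11 (-5.88 ± 0.12), and CRMP1, a mediator of semaphorin signals, 6549.6, 6248 and 5574 against 145, 221 and 175 (-4.98 ± 0.20). Every cycling array again exceeded every confluent and starved array many times over. The homeobox gene DLX5 fell by 4.3 ± 0.29 and the connexin gene GJC3 fell by 4.02 ± 0.18.

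Cardiac actin, ACTC1, held the highest signal of each cycling array at 73318, 72167 and 39089, and stood at 1459.6, 1516 and 1126 in the confluent and starved arrays (-5.43 ± 0.63, and -3.32 with the W-linked covariate). Cycling replicate 3 had the lowest cycling value, still far above the other group. The myosin genes MYH15 and MYL4 fell by 5.1 ± 0.25 and 4.14 ± 0.14, MYH15 to single-digit or low double-digit signals. The keratin gene KRT7 went from 4023, 4713 and 3570.3 to 343, 298 and 328 (-3.6 ± 0.69), and it did not pass with the W-linked level as a covariate (-2.04, limma adjusted p = 0.168). The cartilage collagen gene COL2A1 stood at 9889.8, 9956 and 11111 in cycling and 779.9, 698 and 724 in confluent and starved arrays (-3.78 ± 0.12) on its brightest probe set. Its 4 other tested probe sets were far dimmer, and 1 of them rose by 0.82 ± 0.26. HINTW, a gene of the W chromosome, had 2646, 2835 and 3358 in cycling arrays and 0, 0.850 and 0.830 in confluent and starved arrays (-7.48 ± 1.11). It fell on 1 of 2 probe sets and is part of the W-linked difference given above. Of 12 W-linked genes 4 fell (33.3%) and 3 rose (25%). The confluent and starved means of HINTW, DKK4, RGS20 and MYH15 lay under 22.7.

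**Figure D2:**
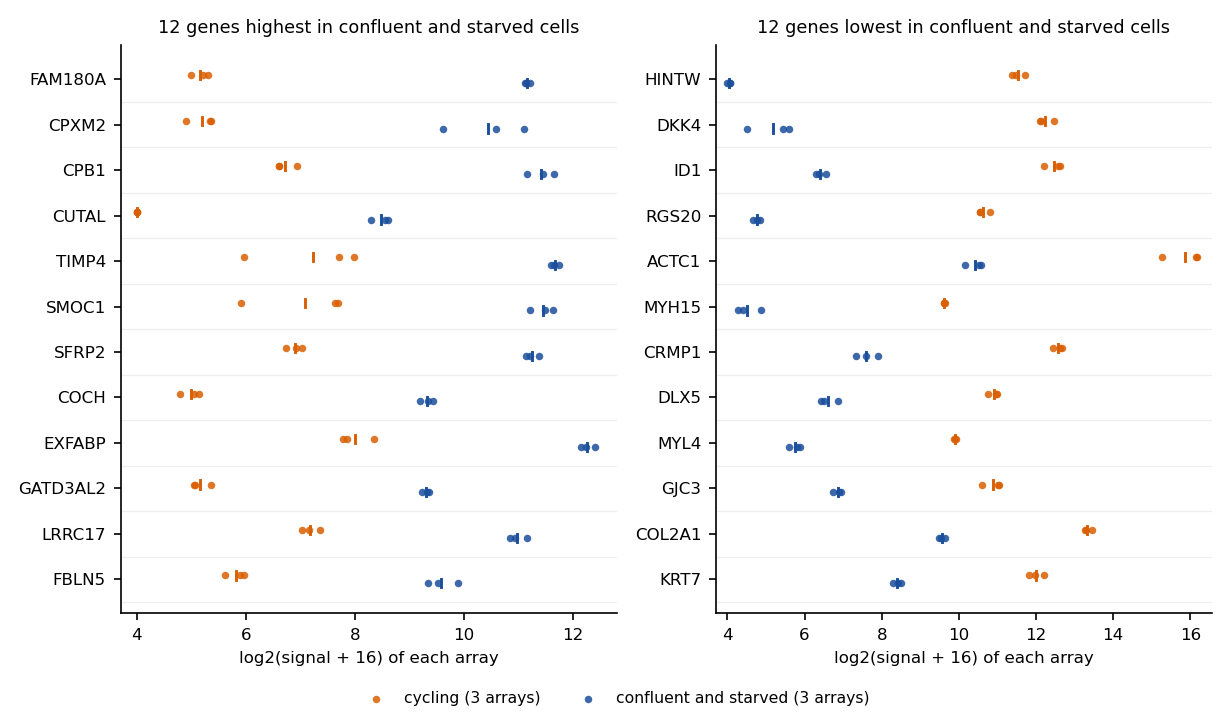
Points show log2(signal + 16) of each array for the 12 genes highest (left) and the 12 lowest (right) in confluent and starved cells, with cycling arrays in orange, confluent and starved arrays in blue and group means as vertical bars (3 arrays a group). The groups do not overlap for any of the 24 genes, which was a condition of their choice, and cycling replicate 3 lies apart for TIMP4 and SMOC1.

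Genes of mitosis fell almost without exception. Of 62 tested genes of the kinetochore, spindle and mitotic control, 59 fell (95.2%) and 0 rose, with a median change of -1.64. The count was 60 without cycling replicate 3 and 49 with the W-linked level as a covariate. CDC20, which activates the anaphase-promoting complex, had 1729, 2092 and 2336 in the cycling arrays and 308, 303 and 263 in the confluent and starved arrays, the largest fall of the list (-2.74 ± 0.16, limma adjusted p = 1.28e-07). AURKB, the kinase of the chromosomal passenger complex, went from 2083, 2184 and 2010 to 357, 336 and 333 (-2.56 ± 0.13). No array of one group came near those of the other for these 2 genes. The spindle assembly factor TPX2 fell by 2.06 ± 0.12, with all 3 of its probe sets lower, and CENPI, a protein of the inner kinetochore, by 1.93 ± 0.12. CDK1, the kinase that drives entry into mitosis, stood at 5103, 5121 and 3753 in cycling and 1237, 1225 and 1124 in confluent and starved arrays (-1.94 ± 0.14), and its groups did not overlap.

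DNA replication genes also fell, by less. Of 54 genes of replication and nucleotide synthesis 34 fell (63%) and 0 rose, with a median of -0.66. The count was 33 without cycling replicate 3 and 12 with the W-linked covariate, with which 1 gene rose. Thymidine kinase, TK1, had 887, 1095 and 1459 in cycling and 299, 266 and 249.9 in confluent and starved arrays (-1.99 ± 0.17), and cycling replicate 3 was its highest value. The flap endonuclease gene FEN1 fell by 1.78 ± 0.19, the origin recognition gene ORC4 by 1.57 ± 0.17 and the clamp loader gene RFC3 by 2.15 ± 0.23. PCNA, the sliding clamp of DNA polymerase, went from 2967, 3426 and 2095 to 1626, 1587 and 1259 (-0.90 ± 0.18), a modest fall that did not pass with the W-linked covariate (-0.61, limma adjusted p = 0.121).

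Among G1 cyclins, kinases, pocket proteins and E2F factors 12 of 26 fell (46.2%) and 3 rose (11.5%), with a median of -0.38; with the W-linked covariate 6 fell and 2 rose. The CDK-binding genes CKS1B and CKS2 fell by 2.09 ± 0.17 and 1.62 ± 0.17, E2F7, a repressor of E2F targets, by 2.2 ± 0.17 on 1 of 2 probe sets, and MYBL2, a factor of late cell cycle genes, by 1.00 ± 0.14. Cyclin D genes did not follow. CCND1 had 3246, 3051 and 2687 in the cycling arrays and 3164, 3677 and 4075 in the confluent and starved arrays, values that overlap, and it did not pass (0.28 ± 0.11, limma adjusted p = 0.0853); without confluent and starved replicate 1 it did. CCND2 rose by 0.94 ± 0.12, with all 3 of its probe sets higher. CDK6, a partner of the D cyclins, rose from 234, 319 and 64.2 to 544, 638 and 406 (1.51 ± 0.39) on 3 of 5 probe sets. The change was 0.89 without cycling replicate 3, which held the lowest value. CDK6 did not pass with the W-linked covariate (limma adjusted p = 0.129) or in a fit of the 6 arrays alone.

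Inhibitors of cyclin-dependent kinases and other arrest genes rose more often than they fell. Of 28 genes 16 rose (57.1%) and 2 fell, with a median of 0.66, and with the W-linked covariate 10 rose and 2 fell. CDKN2A had 1660.1, 1877 and 1697 in cycling and 4491, 4295 and 3808 in confluent and starved arrays (1.26 ± 0.09). CDKN1A (p21) had 1836, 2132 and 2439 and 4498, 5144 and 5729.6 (1.26 ± 0.24), and CDKN1B (p27) 1608, 1516 and 1872 and 2315, 2424 and 3174 (0.65 ± 0.13). The groups stood apart for all 3 genes, but neither CDKN1A nor CDKN1B passed with the W-linked covariate (0.39 and 0.49, limma adjusted p = 0.206 and 0.0980). CDKN2B (p15) went from 1949, 1748 and 1786 to 2679, 2679 and 2549.7, a small rise with little spread (0.53 ± 0.10). GAS2, first described as a growth arrest gene and linked to actin filaments, had 342, 325 and 322 against 3046, 2909.8 and 3240.3 (3.15 ± 0.37). It was the largest rise of the list, with each group within a narrow range. NDRG1 and RGCC, genes that respond to growth arrest and hypoxia or to complement, rose by 1.91 ± 0.14 and 1.59 ± 0.15. The p53 target TP53INP1 rose by 1.27 ± 0.15 on 1 of 2 probe sets. CDKN3, a phosphatase gene of the mitotic programme, fell by 1.22 ± 0.15. GADD45A fell by 0.37 ± 0.12, a call that ended without cycling replicate 3, without confluent and starved replicates 1 or 2, with a replicate block or without the trend in eBayes.

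Genes that FOXO factors are known to activate when growth factors are withdrawn formed a group with the same balance: 16 of 28 rose (57.1%), 2 fell, and the median was 0.63. The counts were 17 and 2 without cycling replicate 3, and 13 and 2 with the W-linked covariate. PIK3IP1, an inhibitor of PI3 kinase, had 95.4, 113 and 108 in cycling and 1174, 1167 and 1380.1 in confluent and starved arrays (3.37 ± 0.19, limma adjusted p = 1.28e-07). Each confluent and starved array lay far above the cycling arrays. FBXO32 (atrogin-1), a ubiquitin ligase of muscle wasting, rose by 2.02 ± 0.16, the mTOR complex 2 subunit RICTOR by 1.44 ± 0.14 and the mitochondrial kinase PINK1 by 1.37 ± 0.14. KLF9 fell by 1.23 ± 0.27 and CITED2 by 0.80 ± 0.23, the latter not passing when any 1 of 4 arrays (cycling replicates 1 or 2, confluent and starved replicates 1 or 2) was left out.

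The insulin-like growth factor axis held both directions, with 6 of 18 genes higher (33.3%), 5 lower (27.8%) and a median of 0.05. The insulin receptor gene INSR rose from 30.9, 37.8 and 58.9 to 181, 200.5 and 227 (1.93 ± 0.21) on 2 of 4 probe sets, and the adaptor gene IRS4 by 1.02 ± 0.22. The receptor gene IGF1R had 776, 773 and 1057 and 1298, 1297 and 1431 (0.63 ± 0.17). All 3 were higher in each confluent and starved array than in each cycling array. The binding protein gene IGFBP7 rose by 2.63 ± 0.48 and the protease gene PAPPA2 by 1.26 ± 0.24, while IGFBP2 fell from 3476, 3649 and 4179 to 747, 719 and 767 (-2.31 ± 0.25). The hormone gene STC2 fell by 1.6 ± 0.18. With the W-linked covariate IGF1R, IGFBP7 and PAPPA2 did not pass, and 2 genes rose and 4 fell.

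Immediate early genes and the feedback genes of ERK signalling moved in both directions. Of 36 genes 10 rose (27.8%) and 9 fell (25%), with a median of 0.08; without cycling replicate 3 the counts were 6 and 9, and with the W-linked covariate 3 and 6. MYC, the growth-promoting transcription factor, had 1218, 1551 and 918 in cycling and 1549, 1619.8 and 1394 in confluent and starved arrays, overlapping values that did not pass (0.33 ± 0.22, limma adjusted p = 0.272). EGR1, an early response factor, stood at 4971, 4778 and 4915 and 5831, 5914 and 7951, apart but not past the threshold (0.41 ± 0.16, limma adjusted p = 0.0632); it passed with quantile normalization, with the W-linked covariate and in a fit of the 6 arrays alone. JUN rose by 0.98 ± 0.24, and the ERK feedback genes DUSP6, DUSP7 and SPRY1 rose by 0.59 ± 0.13, 0.85 ± 0.18 and 0.99 ± 0.22. Of these only DUSP6 also passed with the W-linked covariate. ID1 fell, as given above, and its relative ID2 went from 4856, 5063 and 4355 to 524, 498 and 726 (-3.01 ± 0.17).

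**Figure D3:**
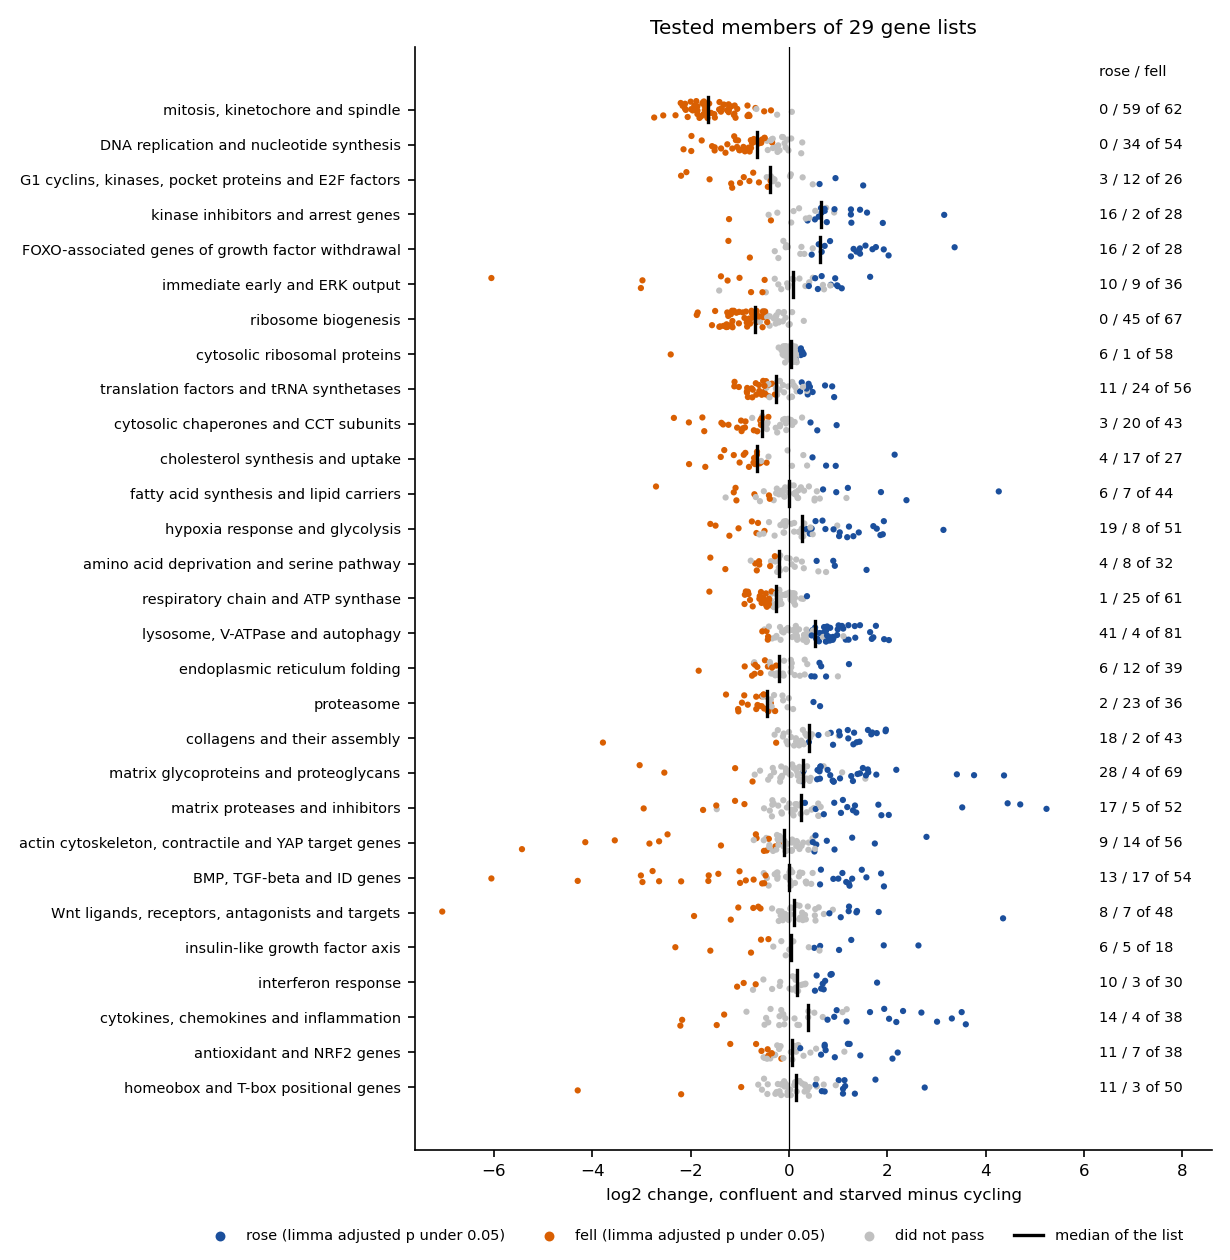
Each point is a tested member of 1 of 29 gene lists, placed by its log2 change from cycling to confluent and starved cells (3 arrays each). Blue points rose and orange points fell by limma's adjusted test, grey points did not pass, black bars are list medians, and the numbers at the right count genes that rose and fell, such as 0 and 59 of 62 for mitosis.

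Ribosome biogenesis genes fell in most cases, whereas few ribosomal protein genes passed the test. Of 67 ribosome biogenesis genes 45 fell (67.2%) and 0 rose, with a median of -0.70, and the count was 42 without cycling replicate 3. With the W-linked covariate 13 fell and 2 rose. NHP2, a core protein of the box H/ACA particles that modify ribosomal RNA, had 1321, 1639 and 2211 in cycling and 495, 459.7 and 411 in confluent and starved arrays (-1.86 ± 0.19). The histone chaperone NPM3, the 60S assembly factor NIP7 and the small-subunit processing factor IMP3 fell by 1.88 ± 0.20, 1.33 ± 0.15 and 1.5 ± 0.18. For these genes cycling replicate 3 was the highest cycling array, and all 3 cycling arrays exceeded all confluent and starved ones.

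Of 58 cytosolic ribosomal protein genes 6 rose (10.3%) and 1 fell, with a median of 0.03; the covariate gave 7 and 1. The rises were small and ended when arrays were centred on their median, where 0 rose and 4 fell. RPS25, RPS24, RPL29 and RPL4 rose by 0.24 ± 0.05, 0.24 ± 0.06, 0.27 ± 0.07 and 0.24 ± 0.06, none of them under centring or without the trend in eBayes, and 1 of 6 RPS25 probe sets fell. The gene that fell was RPS13, on the brightest of its 5 tested probe sets: 889, 863 and 778 in cycling and 149, 145 and 144 in confluent and starved arrays (-2.41 ± 0.15). A dimmer RPS13 probe set fell by 0.71 ± 0.17 and the other 3 did not pass, so the level of RPS13 is uncertain.

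Of 56 translation factors and tRNA synthetases 24 fell (42.9%), and the median was -0.27. The 11 that rose (19.6%) were near the background of 18.6%. With the W-linked covariate 7 fell and 7 rose. The synthetase genes YARS and FARSA fell by 1.11 ± 0.16 and 0.84 ± 0.14, the hypusine-carrying factor gene EIF5A2 by 1.02 ± 0.16 and the start-codon factor EIF1 by 0.53 ± 0.09. Subunits EIF3H and EIF3M of the large initiation complex rose, EIF3H from 4909, 4947 and 4101 to 8237, 8749.6 and 8604 (0.88 ± 0.09) and EIF3M by 0.92 ± 0.16.

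Many chaperone and proteasome genes fell. Of 43 cytosolic chaperone genes 20 fell (46.5%) and 3 rose, with a median of -0.54; with the W-linked covariate 14 fell and 1 rose. HSPA8, the constitutive HSP70, had 8856, 9335 and 11456 in cycling and 5605, 5368 and 7089 in confluent and starved arrays (-0.72 ± 0.13). The HSP90 cochaperone CHORDC1, the chaperonin subunit CCT7 and the small heat shock gene HSPB9 fell by 1.76 ± 0.13, 1.23 ± 0.10 and 2.34 ± 0.23. FKBP5, a cochaperone that responds to glucocorticoids, fell by 1.72 ± 0.12, with all 3 probe sets lower. BAG5 and DNAJB6 rose by 0.97 ± 0.17 and 0.57 ± 0.12 and did not pass with the W-linked covariate. Of 36 proteasome genes 23 fell (63.9%) and 2 rose, with a median of -0.46 and 12 lower with the covariate. Core subunits PSMA7 and PSMB3 fell by 1.04 ± 0.11 and 0.84 ± 0.09, the lid subunit PSMD3 by 1.28 ± 0.16 and the ATPase PSMC5 by 0.91 ± 0.14. The assembly chaperones PSMG2 and PSMD5 rose by 0.63 ± 0.13 and 0.50 ± 0.15, and neither passed with the covariate; PSMD5 also failed when arrays were centred, in a fit of the 6 arrays alone and without any 1 of 5 arrays, all but cycling replicate 3.

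In the endoplasmic reticulum list 12 of 39 folding and translocation genes fell (30.8%) and 6 rose (15.4%), with a median of -0.20; the covariate left 5 and 4. HSPA5 (BiP), the main chaperone of the compartment, went from 11731, 9782 and 8231 to 5807, 5642 and 6012 (-0.75 ± 0.11). The translocon genes SEC61A1 and SEC61G fell by 0.90 ± 0.09 and 0.64 ± 0.10 and the chaperone HYOU1 by 0.70 ± 0.13. The oxidase gene ERO1A, also a hypoxia target, rose by 1.22 ± 0.19 and SEL1L, of the degradation machinery, by 0.75 ± 0.16, each on only 1 of its probe sets. HYOU1 and ERO1A did not pass with the covariate.

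Respiratory chain genes that passed were almost all lower. Of 61 genes of the respiratory chain and ATP synthase 25 fell (41%) and 1 rose, with a median of -0.26, and 16 fell with the W-linked covariate. Cytochrome c, CYCS, had 5387, 5754 and 4356 in cycling and 1862, 1564 and 1565 in confluent and starved arrays (-1.62 ± 0.15), the largest fall of the list. The ATP synthase genes ATP5G3 and ATP5B fell by 0.90 ± 0.09 and 0.91 ± 0.10 and the complex I subunit NDUFA8 by 0.88 ± 0.13. SDHD was the 1 gene that rose (0.37 ± 0.11), a call lost without cycling replicate 3 and under 5 other alternatives.

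Of 51 hypoxia response and glycolysis genes 19 rose (37.3%) and 8 fell (15.7%), with a median of 0.26; without cycling replicate 3 the counts were 15 and 7, and with the covariate 12 and 7. The carbonic anhydrase gene CA12 went from 22.4, 24.4 and 22.2 to 334, 359.7 and 292 (3.14 ± 0.30). It was the largest rise of this list, with no overlap. The collagen hydroxylase genes P4HA1 and PLOD1 rose by 1.31 ± 0.10 and 1.03 ± 0.11. EPAS1, which encodes the hypoxia factor HIF-2 alpha, fell by 1.5 ± 0.20.

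Genes of the amino acid deprivation response and serine synthesis gave no clear balance, 8 of 32 lower (25%) and 4 higher (12.5%), with a median of -0.19. SLC7A3, a cationic amino acid transporter, fell by 1.3 ± 0.14, the folate enzyme MTHFD2 by 0.66 ± 0.16 and the threonyl-tRNA synthetase TARS by 0.61 ± 0.14, and the last of these and MTHFD2 did not pass with the W-linked covariate. CHAC1, a glutathione-degrading enzyme of this response, rose from 819.95, 614 and 1031 to 1918, 1874 and 3979 (1.58 ± 0.27), and PHGDH, the first enzyme of serine synthesis, by 0.93 ± 0.20. With the covariate the counts were 2 lower and 8 higher.

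Most cholesterol synthesis genes fell, and the cholesterol exporter gene ABCA1 rose. Of 27 genes of synthesis and uptake 17 fell (63%) and 4 rose (14.8%), with a median of -0.65. The counts were 16 and 4 without cycling replicate 3, and 12 and 2 with the W-linked covariate. FDPS, which makes farnesyl diphosphate, had 2353, 2667 and 3061 in cycling and 929, 812 and 708 in confluent and starved arrays (-1.7 ± 0.17). NSDHL, SQLE and PMVK, enzymes of later and earlier steps, fell by 2.03 ± 0.26, 1.01 ± 0.14 and 1.39 ± 0.20. ABCA1, which exports cholesterol to apolipoproteins, went from 7.63, 5.70 and 6.31 to 116, 92.4 and 53.3 (2.15 ± 0.23). Its cycling values lay under the tested level, so this change depends on the offset. INSIG2, a brake on the pathway, rose by 0.95 ± 0.21.

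Fatty acid and lipid carrier genes moved in both directions, with 6 of 44 higher (13.6%), 7 lower (15.9%) and a median of 0.01, shares not above the background. ACLY, which makes cytosolic acetyl-CoA, fell by 1.09 ± 0.13, the elongase ELOVL1 by 1.07 ± 0.16, the acyl-CoA synthetase ACSL5 by 1.12 ± 0.16 and the desaturase SCD by 0.70 ± 0.18. The carrier FABP7 fell from 1470.5, 1599.7 and 975 to 242, 189.6 and 146 (-2.71 ± 0.39), and the secreted chaperone clusterin, CLU, rose from 598, 713 and 956 to 3774, 3648 and 4471 (2.39 ± 0.20). Both were apart between the groups, as was EXFABP. With the W-linked covariate 10 genes of the list rose and 5 fell.

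Lysosome and autophagy genes rose broadly. Of 81 genes 41 rose (50.6%) and 4 fell (4.94%), with a median of 0.53. The counts were 38 and 3 without cycling replicate 3, and 23 and 5 with the W-linked covariate. CTSV, a cysteine cathepsin, had 1576, 1697 and 1429.8 in cycling and 5952, 6020 and 6083 in confluent and starved arrays (1.93 ± 0.15, limma adjusted p = 1.26e-06). The hydrolase genes ARSB, an arylsulfatase, and MANBA, a mannosidase, rose by 1.44 ± 0.13 and 1.15 ± 0.14, and MAP1LC3B, which marks the autophagosome membrane, by 0.98 ± 0.11, with both probe sets higher. The cathepsin CTSB went from 3496, 3471 and 3564 to 5007, 5153 and 5086 (0.53 ± 0.10), with tight groups, and did not pass with the covariate (0.29, limma adjusted p = 0.149). Proton pump subunits ATP6V0D1 and ATP6V0B fell by 0.54 ± 0.16 and 0.46 ± 0.13, calls that ended without confluent and starved replicate 1 or 2 and, for ATP6V0D1, without cycling replicate 3.

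Of 38 antioxidant genes 11 rose (28.9%) and 7 fell (18.4%, near the background of 16.1%), with a median of 0.05. Without cycling replicate 3, 11 rose and 5 fell, and with the W-linked covariate 11 and 2. The glutathione transferase GSTA4 rose by 2.21 ± 0.16, the secreted glutathione peroxidase GPX3 from 475, 545 and 513 to 2258, 2283 and 2194 (2.1 ± 0.27), the peroxidase GPX8 by 0.93 ± 0.11 and malic enzyme ME1 by 1.2 ± 0.14. In contrast the cytosolic peroxidase GPX1 fell by 0.67 ± 0.15 and GSTT1 by 1.2 ± 0.29, the latter not with the covariate.

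Collagens and other matrix genes rose more often than they fell. Of 43 genes of collagens and their assembly 18 rose (41.9%) and 2 fell, with a median of 0.40, 16 and 2 without cycling replicate 3 and 12 and 2 with the covariate. COL6A1, of the beaded microfibrils, had 2611, 2695 and 2421 in cycling and 7995, 8594 and 8456 in confluent and starved arrays (1.69 ± 0.07, limma adjusted p = 9.46e-09), and COL6A2 rose by 1.67 ± 0.10 on 1 of 2 probe sets. COL1A1, the main fibrillar collagen, stood at 14532, 14620 and 16168 and 15806, 16680 and 17430, overlapping values that did not pass (0.14 ± 0.12, limma adjusted p = 0.406). The fall of COL2A1 is given above, and SERPINH1, the collagen chaperone, fell by 0.26 ± 0.06, not without the trend in eBayes or with the covariate.

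Among 69 matrix glycoprotein and proteoglycan genes 28 rose (40.6%) and 4 fell (5.80%), with a median of 0.29; 23 and 4 did so without cycling replicate 3, and 16 and 4 with the covariate. Fibrillin 2, FBN2, a microfibril protein of embryonic tissue, went from 179, 182 and 101 to 1657, 1722 and 1854 (3.41 ± 0.22) on 5 of 6 probe sets. All 3 confluent and starved arrays were many times brighter. The thrombospondin genes COMP and THBS4 rose by 1.44 ± 0.10 and 1.3 ± 0.14. NID1, of the basement membrane, fell from 439, 367 and 331 to 29.7, 30.3 and 35.8 (-3.04 ± 0.40), and HAPLN1, which links hyaluronan and proteoglycans, fell by 2.54 ± 0.31.

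Matrix proteases, their inhibitors and cross-linking enzymes numbered 52, of which 17 rose (32.7%) and 5 fell (9.62%), with a median of 0.25. Without cycling replicate 3 the counts were 16 and 7, and with the covariate 10 and 4. Transglutaminase 2, TGM2, had 232, 208 and 186 in cycling and 2684, 2450.4 and 2527 in confluent and starved arrays (3.52 ± 0.12, limma adjusted p = 5.58e-10), with no overlap. SERPINB2, a plasminogen activator inhibitor, fell by 1.75 ± 0.36, and ADAMTSL3 by 2.96 ± 0.77 on 1 probe set while another rose by 2.85 ± 0.36, so no direction is given for that gene. Neither passed with the covariate.

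Genes of the actin cytoskeleton, contraction and YAP output showed 14 of 56 lower (25%), 9 higher (16.1%) and a median of -0.10; 17 were lower and 6 higher with the covariate. Gamma smooth muscle actin, ACTG2, went from 9185, 10322 and 8604 to 1859.8, 1816 and 1386 (-2.47 ± 0.16), and FHL2, a LIM protein of adhesion sites, from 1074, 1047 and 804 to 72.7, 68.8 and 63.8 (-3.54 ± 0.19). Its relative FHL1 moved the other way, from 493, 549 and 165 to 2611, 2704 and 2413 (2.79 ± 0.34), where cycling replicate 3 was lowest. The sarcomeric crosslinker ACTN2 rose by 1.74 ± 0.44 and did not pass with the covariate.

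ID1, DLX5 and ID2 of the BMP and TGF-beta list were among the strong falls, although the list of 54 held 13 genes that rose (24.1%) beside 17 that fell (31.5%), with a median of -0.01. With the covariate 8 rose and 12 fell. The ligand TGFB3 had 4236, 4783 and 6825 in cycling and 800.4, 705 and 959 in confluent and starved arrays (-2.64 ± 0.18), lower in each array and on both probe sets. HEY1 and the follistatin-like FSTL1 rose by 1.93 ± 0.37 and 1.87 ± 0.48; FSTL1 had its lowest value in cycling replicate 3 and rose by 1.18 without it, neither gene passed with the covariate, and FSTL1 did not in a fit of the 6 arrays alone.

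In the Wnt list 8 of 48 genes rose (16.7%) and 7 fell (14.6%), near the background, with a median of 0.09, and 7 and 5 did so with the covariate. RSPO3, which amplifies Wnt signals, went from 256, 263 and 358 to 999, 1018 and 1181 (1.82 ± 0.15). DKK3 and SFRP1 rose by 1.22 ± 0.14 and 1.21 ± 0.14, beside SFRP2 above, and the ligand WNT5A fell from 214, 216 and 209.7 to 46.4, 45.1 and 40.8 (-1.93 ± 0.16) on all 4 probe sets. RSPO3 and WNT5A did not overlap between the groups. Among 50 homeobox and T-box genes, which mark the position of a fibroblast in the body, 11 rose (22%) and 3 fell (6%), with a median of 0.14; with the covariate 6 rose and 5 fell, so the balance did not hold. The LIM homeobox gene LHX9 had 91.6, 139 and 106 against 889.9, 825 and 808 (2.76 ± 0.23). HOXA3, PRRX1 and LMX1B rose by 1.14 ± 0.16, 1.34 ± 0.20 and 1.76 ± 0.30, the last 2 not with the covariate, and DLX6 fell by 2.19 ± 0.19 with its neighbour DLX5.

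Of 38 cytokine, complement and inflammation genes 14 rose (36.8%) and 4 fell (10.5%), with a median of 0.39, and 13 and 2 with the covariate. C1R and C1S, the proteases that start the classical complement pathway, rose together: C1R from 94, 92.8 and 98.7 to 1302, 1241 and 1444 (3.59 ± 0.29) and C1S from 68, 69.1 and 42.7 to 817, 776 and 604 (3.31 ± 0.32). The death ligand TNFSF10 (TRAIL) rose by 3.01 ± 0.29 and the receptor TLR2A by 2.03 ± 0.19 from cycling signals under 10. IL6 fell from 1920.3, 1366 and 701 to 196, 215 and 379 (-2.21 ± 0.60) on 1 of 3 probe sets, not without cycling replicate 1 or confluent and starved replicate 1. CCL4 fell by 2.17 ± 0.77 (limma adjusted p = 0.0471), a call lost whichever of the 6 arrays was left out.

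Of 30 interferon response genes 10 rose (33.3%) and 3 fell (10%), with a median of 0.17. IRF1, a factor that responds to interferon, rose from 37, 50.9 and 38.2 to 155, 168 and 238 (1.79 ± 0.19), above the other group on each array. The antiviral gene ZC3HAV1, the receptor IFNAR2 and the ligand CD274 rose by 0.84 ± 0.13, 0.56 ± 0.10 and 0.73 ± 0.15. The peptide transporter genes TAP1 and TAP2 fell by 1.06 ± 0.18 and 0.92 ± 0.20, and neither passed with the covariate, under which 7 rose and 0 fell.

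Besides the genes that lost their call, 19 named genes kept it with the W-linked covariate while their change moved by over 1.5 times. The change was smaller for 10 of them, which were ACTC1 as given above, HINTW at -2.9, CUTAL at 2.65, HAPLN1 at -1.54, SLC10A4 at -1.37, RFC3 at -1.34, GPX3 at 1.24, NSDHL at -1.13, EPAS1 at -0.87 and ACLY at -0.72. It was larger for the other 9, with IL6 at -3.5, KLF9 at -2.15, INSIG2 at 1.65, PHGDH at 1.53, CITED2 at -1.24, ATP6V0D1 at -0.90, GADD45A at -0.69, RPL29 at 0.45 and RPL4 at 0.39.

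Markers of fibroblasts included some of the brighter genes in both groups. VIM, COL1A2 and DCN had signals of 13510 to 15126, 10647 to 11980 and 9825 to 10929 in cycling arrays, and PDGFRA was dim at 24.7 to 61.7. Of 19 fibroblast genes 11 rose (57.9%) and 0 fell, and their summed signal was 141272 to 151059 in cycling and 169094 to 177380 in confluent and starved arrays. FAP and FBLN1 rose by 1.37 ± 0.29 and 1.6 ± 0.28.

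The summed signals of markers of some other cell types differed between the groups. Over all genes 18.6% rose and 16.1% fell, the background for the counts of these short lists. The cartilage and bone counts were near it. The summed signal of 29 muscle genes on the array was 47527 to 82881 in cycling and 7285 to 7582 in confluent and starved arrays, with ACTC1 as most of the cycling sum. Of 19 tested muscle genes 5 fell (26.3%) and 3 rose (15.8%). The myogenic factor MYOD1 had 20.1 to 51.3 and 16 to 33.4 and did not pass (-0.30 ± 0.25). For 19 cartilage and bone genes the sum was 13687 to 15260 and then 5838 to 6598, and 3 of 17 fell (17.6%) and 4 rose (23.5%). SOX9, the cartilage regulator, fell by 1.11 ± 0.14 from 85.6 to 102 in cycling arrays, and ACAN lay at 13.3 to 20.6 and 12 to 19.3. The 4 that rose were COL11A1 (1.38 ± 0.21, from 1276 to 1450 in cycling arrays), SOX5 (0.88 ± 0.18), BGLAP (0.85 ± 0.18) and SOX6 (0.59 ± 0.14). The sum of 21 epithelial genes was 7648 to 8426 and then 2391 to 2615, with 4 of 15 lower (26.7%) and 0 higher. KRT14 and the desmosome gene PKP2 fell by 2.44 ± 0.38 and 3.44 ± 0.22, and the cadherin CDH3 by 1.07 ± 0.18 from cycling signals of 354 to 531. SPINT1 (609 to 836 over the 6 arrays) and CLDN4 (284 to 363) were well above the median signal of an array and did not pass, while EPCAM and CDH1 lay at 2.48 to 16.2 and CLDN3 at 0 to 1.79. ACTC1, MYL4, MYH15, COL2A1, HAPLN1 and KRT7 are themselves members of these sums, so their falls and those of the sums are not separate results. COL2A1 (9890 to 11111 in cycling, 698 to 780 in confluent and starved arrays) was most of the cartilage and bone sum in cycling cells. KRT7 (3570 to 4713, then 298 to 343) was a large part of the epithelial sum. The part of the sums in the other results was not tested.

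The remaining marker sums were small or higher in the confluent and starved arrays. Endothelial genes (16 on the array) summed to 2514 to 2670 in cycling and 3115 to 3593 in confluent and starved arrays. Of 14 tested, 3 were higher (21.4%) and 2 lower (14.3%), near the background. Counts use the probe set of highest mean log2 value, whereas sums, ranges and changes of single marker genes use that of highest mean signal. On the latter CLDN5, EGFL7 and SOX18 were lower and ERG, LYVE1 and VWF higher. The transcription factor ERG rose by 1.43 ± 0.19 from 499 to 707 in cycling arrays, and SOX18 fell by 1.69 ± 0.20 from 230 to 262; ESAM lay at 367 to 541 over the 6 arrays and CDH5 at 5.47 to 13.7. Macrophage and blood genes (18) summed to 1178 to 1267 and 1513 to 1825, with 2 of 15 higher (13.3%) and 1 lower (6.67%). The protease CTSS rose by 2.03 ± 0.35. Over the 6 arrays PTPRC lay at 77.3 to 204, CSF1R at 67.1 to 109, CYBB at 2.41 to 12.4 and CD3E at 0 to 8.24. Nerve, glia and pigment genes (19) summed to 978 to 1083 and 1279 to 1785, with 2 of 16 higher (12.5%), MBP by 2.83 ± 0.24, and 2 lower (12.5%). Adipocyte genes (14) summed to 4661 to 6127 and 7066 to 7413, and 1 of 14 (7.14%), G0S2, rose (0.51 ± 0.11). With the W-linked covariate the counts that rose and fell were 6 and 1 for fibroblast, 1 and 5 for muscle, 3 and 3 for cartilage and bone, 3 and 1 for endothelial genes. They were 0 and 0 for macrophage and blood, 0 and 2 for epithelial, 1 and 2 for nerve, glia and pigment, 2 and 0 for adipocyte genes.

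Set against contact inhibition alone, the double arrest differed widely. Of 28270 probe sets 4867 (17.2%) differed, 3005 higher and 1862 lower in the doubly arrested cells (4612 in all with the W-linked covariate), and of 11498 genes 1555 were higher (13.5%) and 844 lower (7.34%). Most mitosis genes were lower than in contact-inhibited cells: 42 of 62 were lower and 1 higher. CDC20 had 1334, 1247, 1147 and 1100 in the 4 contact-inhibited arrays, above all doubly arrested arrays (-1.99 ± 0.15), and AURKB had 1027, 1119, 1101 and 1122 (-1.63 ± 0.12). Their contact-inhibited values lay between the other 2 groups. Replication and ribosome biogenesis genes differed in the other direction where they differed: 10 of 54 and 14 of 67 were higher than in contact-inhibited cells and 0 were lower. Immediate early genes were higher in 16 of 36 cases and lower in 3. MYC had 463, 433, 346 and 324 and EGR1 1013, 1244, 1204 and 1484 in contact-inhibited arrays, and both were higher in the doubly arrested cells (1.93 ± 0.20 and 2.39 ± 0.15). Chaperone and actin or YAP genes were likewise higher in 16 of 43 and 20 of 56 cases and lower in 1 each; HSPA8 had 2489.7, 2301, 2143 and 2361 and was 1.36 ± 0.12 higher.

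Against serum starvation alone few differences passed: 272 of 28270 probe sets (0.962%), 137 higher and 135 lower (596 in all with the W-linked covariate), and 94 genes higher (0.818%) and 74 lower (0.644%). An unadjusted p under 0.05 was found for 3681 probe sets. The count rested on all arrays being present, since it was 31 to 154 with any 1 array of the 2 groups left out, and 863 in a fit of these 6 arrays alone. A few matrix genes were among those higher, such as COL6A1 (0.38 ± 0.07), COMP (0.59 ± 0.10) and TGM2 (0.78 ± 0.12). The counts were 1 of 43 collagen genes, 3 of 69 matrix glycoprotein genes and 3 of 52 protease and inhibitor genes, with 0, 0 and 1 lower. EXFABP exceeded its starved level of 1206, 2192 and 1949 by 1.5 ± 0.21. It was below its contact-inhibited level of 8712 to 11657 (-0.98 ± 0.19). In the mitosis list 5 of 62 genes were lower than in serum-starved cells, AURKB at 628, 535 and 443 in starved arrays among them (-0.61 ± 0.13, limma adjusted p = 0.0384). In the translation and amino acid lists 6 of 56 and 5 of 32 were lower, SLC7A3 (-1.26 ± 0.14) and YARS (-0.92 ± 0.16) among them. CDKN2B stood at 5079, 4913 and 5129 in serum-starved, 186, 204, 179 and 203 in contact-inhibited and 2549.7 to 2679 in doubly arrested arrays, so the doubly arrested level was below the first (-0.93 ± 0.10) and above the second (3.67 ± 0.09).

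A small set of genes was higher or lower than all 3 other groups by the tests of group means. These include the test against serum-starved cells, whose 272 calls became 31 to 154 with 1 array left out. Whether the genes of the set kept that call with 1 array left out is not given here. Of the 2134 genes higher than in cycling cells 41 (1.92%) were also higher than in each single arrest, and of the 1854 lower genes 20 (1.08%) were lower than in each; the 3 tests share the doubly arrested arrays. ADAMTSL1, a matrix glycoprotein related to the ADAMTS proteases, had 365, 418 and 462 in the doubly arrested arrays, against 80.5 to 103 in cycling, 48.3 to 55.3 in contact-inhibited and 61.5 to 111 in serum-starved arrays, on 1 of 3 probe sets. Only the doubly arrested arrays were high. SFRP2 was highest in the double arrest, with 398 to 569.8 in contact-inhibited and 654 to 999.7 in serum-starved arrays below the 2236 to 2665 of the doubly arrested ones. BDNF, a neurotrophin, had 583 to 660.3 in cycling, 411 to 730.2 in contact-inhibited, 479 to 863 in serum-starved and 1351, 1355 and 1572 in doubly arrested arrays. It was high in the last group only, on 1 of 2 probe sets, and its change against cycling cells did not pass with the W-linked covariate (0.46). The fibrinogen chain gene FGA was 2.11 ± 0.34 above contact-inhibited and 1.97 ± 0.36 above serum-starved cells, and TMEM140 2.45 ± 0.14 and 1.14 ± 0.15. K123 and CUTAL were also in this set, although K123 did not pass against cycling cells with the W-linked covariate (1.27, limma adjusted p = 0.0565); their contact-inhibited arrays spanned 81 to 393 and 23.8 to 189, with 1 array far above the other 3. TNFRSF11B (osteoprotegerin), a decoy receptor of bone turnover, had 1552, 1952 and 1025 in cycling and 3720.1, 2454 and 2593 in doubly arrested arrays (0.97 ± 0.32), a call lost without any 1 of 5 arrays (all but cycling replicate 2) and with the covariate. It had 268 to 671 in contact-inhibited and 767 to 1052 in serum-starved arrays, the latter overlapping the lowest cycling array.

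Genes lowest in the doubly arrested cells included CDCA3, which promotes the destruction of mitotic inhibitors, and DIO3, which inactivates thyroid hormone. CDCA3 had 2369 to 2487 in cycling, 757 to 1177 in contact-inhibited, 715 to 1040.5 in serum-starved and 519, 448 and 457 in doubly arrested arrays. It fell in each arrest and furthest in the double one. DIO3 had 1512 to 1712, 1499 to 2043, 789 to 1462 and 472, 522 and 518 in the same order, and every doubly arrested array lay below all 10 others. The transporter SLC10A4 and the endothelial lipase LIPG were below serum-starved cells (-1.72 ± 0.22 and -0.96 ± 0.16), and LIPG did not pass against cycling cells with the covariate. PKDCCB, NFIC and SH2B1 were also lower than in each single arrest, with changes of -1.1 ± 0.17, -0.99 ± 0.20 and -1.47 ± 0.21 against contact-inhibited and -1.07 ± 0.18, -1.02 ± 0.22 and -1.21 ± 0.22 against serum-starved cells. RPS13 belongs here on its brightest probe set only.

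**Figure D4:**
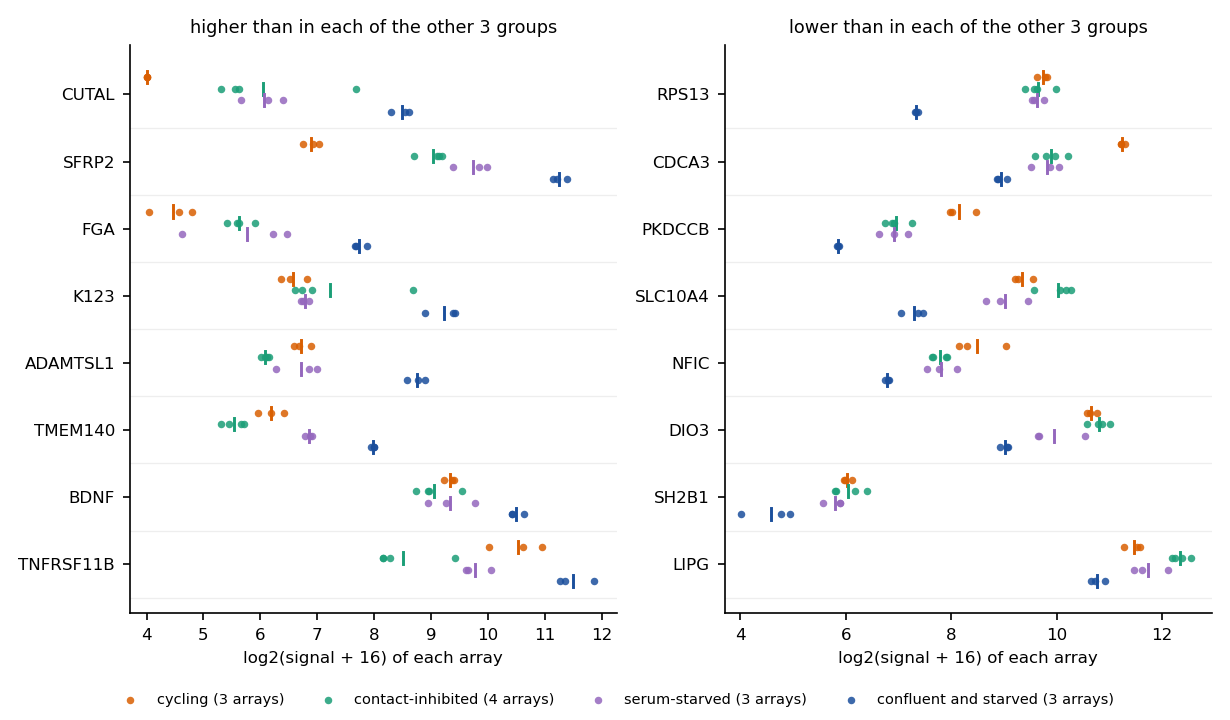
Points show log2(signal + 16) of each of 13 arrays for the 8 genes highest (left) and the 8 lowest (right) in confluent and starved cells (blue) relative to both single arrests, with cycling arrays in orange, contact-inhibited in green, serum-starved in purple and group means as bars. For ADAMTSL1 the confluent and starved arrays lie at 365 to 462, above the cycling, contact-inhibited and serum-starved arrays, which reach at most 111.5.

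Some genes lay on opposite sides of the cycling level in the 2 confluent conditions, which differ in serum. CCK, PTGS2, APOA1, CYP24A1 and ATP6V1G3 were chosen after their values were seen, and since the order of the groups chose the genes here, the differences between the confluent conditions are a description. The peptide hormone gene CCK had 726, 992 and 961 in cycling, 3869, 4809.9 and 4659 in doubly arrested and 364, 48.1, 43.4 and 38.8 in contact-inhibited arrays, and differed by 5.56 ± 0.54 between the last 2. The first contact-inhibited array was well above the other 3. PTGS2 (cyclooxygenase 2) had 915, 595 and 786, 2881, 3482 and 5573 and 304, 292, 199.6 and 298 in the same order (3.75 ± 0.26), and apolipoprotein APOA1 341 to 493, 1459 to 1736 and 75.9 to 121 (3.88 ± 0.16). For both, the serum-starved arrays (2592 to 5351 and 1196 to 1536) were on the side of the doubly arrested ones. The vitamin D hydroxylase CYP24A1 had 141, 4.15, 2.85 and 0 in contact-inhibited arrays and 1112, 1065 and 941 in doubly arrested ones, and FBLN5 37.9, 8.70, 6.65 and 7.72 and 940.1, 719 and 636. Their fitted differences of 5.07 ± 0.70 and 4.73 ± 0.28 depend on the offset, since all FBLN5 values but 1 and all CYP24A1 values but 1 in contact-inhibited arrays lay under 22.7. The reverse held for FKBP5, at 1239.7 to 1634 in cycling, 376 to 444 in doubly arrested and 3136 to 3624 in contact-inhibited arrays (-2.99 ± 0.12). KLF9, STC2 and the proton pump subunit ATP6V1G3 were lower than in contact-inhibited cells too (-2.8 ± 0.25, -2.9 ± 0.17 and -3.23 ± 0.40).

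**Figure D5:**
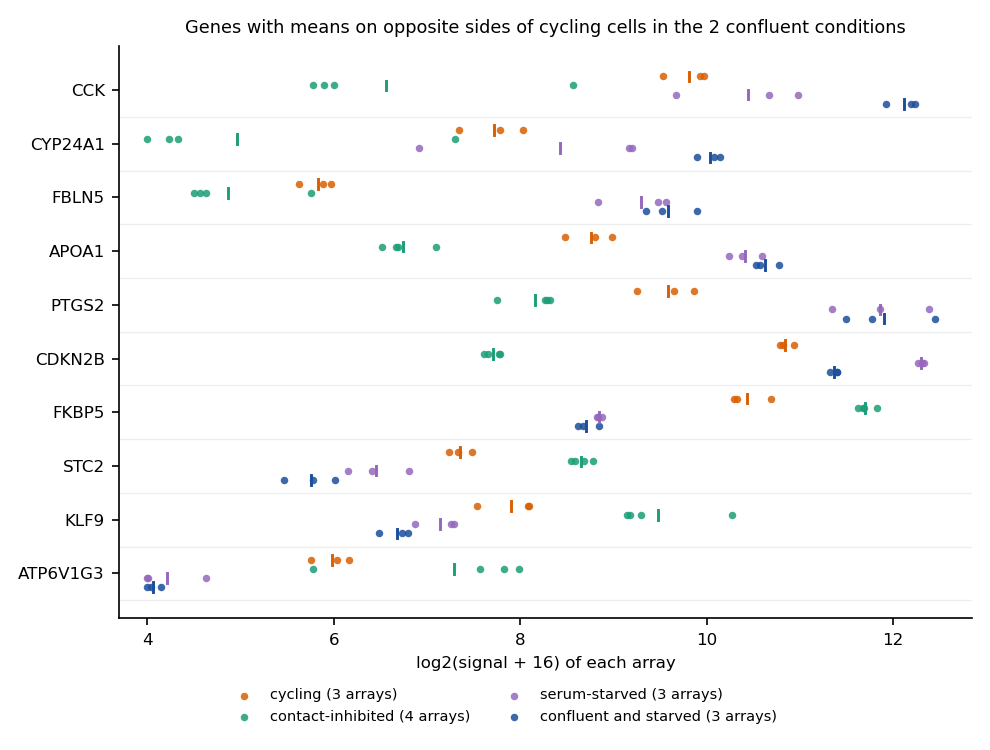
Points show log2(signal + 16) of each of 13 arrays for 10 genes, coloured by condition as in the legend, with group means as bars. In the upper 6 genes the contact-inhibited mean lies below and the confluent and starved mean above that of cycling cells, and in the lower 4 genes the order is reversed.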

How the data were processed

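Transcripts of 13 cultures were measured on Affymetrix chicken arrays, 1 array each, grouped by the treatment the labels give. The deposited intensity values are linear PLIER signals that the authors made with Expression Console 1.1, per the submitters' processing notes; how they were scaled and background-corrected is not stated there. Of 38535 probe sets, 37693 are chicken, 153 controls and 689 other. Genes were named from the platform annotation: 27166 chicken probe sets had 1 symbol, 177 several and 10350 none.

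Signals were turned into log2(signal + 16), probe sets with a mean under the 25th percentile were dropped, and 28270 were fitted in 4 groups over all 13 arrays with limma 3.58.1 (R 4.3.3; lmFit, eBayes with trend, Benjamini-Hochberg adjustment, threshold 0.05). A gene is represented by its tested probe set of highest mean log2 value, and in the marker sums and ranges by that of highest mean signal. In simulated data with independent normal noise the fit recovered 26.9% of 1.5-fold, 62.7% of 2-fold and 95.5% of 4-fold changes, with 9 false calls. Modest changes were thus often missed there. Only 67, 67 and 66 of 28270 probe sets were changed in the simulation, against 8390 called in the real comparison with cycling cells. The adjustment is stricter where fewer probe sets change, so these shares do not give the recovery in the real data. No outlying array was simulated. Named genes are the 12 highest and 12 lowest among those called without overlap of the arrays, the 4 members of each list with the smallest adjusted p, up to 2 called in the other direction, 8 in each direction beyond both single arrests, and 18 tested genes named in advance. Members and lists were chosen with earlier results of these data known. Alternatives were centring, quantile normalization, offsets of 1 and 64, other filters, eBayes without trend, a replicate block, the W-linked level as a covariate, the compared arrays alone, and leaving out each array. No sequences were used here.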

Additional observations from a re-analysis of the deposited data

Results flagged for a closer look

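In 31 of 197 named genes (15.7%) 1 contact-inhibited array lay apart from the other 3 by Dixon's criterion. Chance meets it in about 1 in 20 groups, but these genes share the same arrays, so the count cannot be set against that rate. The array was not always the same one: it was replicate 4 for E2F7 and DUSP6, replicate 3 for CENPI and replicate 2 for RGCC. For CUTAL, TNFRSF11B, SFRP2, SMOC1, GATD3AL2, FBLN5, HINTW, ACTC1 and KRT7 it was replicate 1. Over all tested probe sets replicate 1 also correlated less with the other contact-inhibited arrays than these did with each other, as given above. The signal of the array that lay apart was 188.9 for CUTAL, 393.0 for K123, 671.1 for TNFRSF11B, 397.8 for SFRP2, 334.4 for SMOC1, 496.9 for GATD3AL2, 37.91 for FBLN5, 84.34 for HINTW, 988.7 for ACTC1 and 63.55 for KRT7.

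Some genes were called above cycling cells in one arrested state and below them in another. That order chose them, so the difference between the states follows from the choice and is given as a description. Against contact-inhibited cells the log2 difference was 5.557 for CCK, 5.074 for CYP24A1, 4.728 for FBLN5, -3.229 for ATP6V1G3, -2.991 for FKBP5 and -2.901 for STC2. Against serum-starved cells it was -2.172 for NCF4.

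Outside the chicken probe sets, 3 of 689 other probe sets were at least 2-fold higher in confluent and starved than in cycling arrays without overlap and 0 lower, and for the first and second of these the mean was 245.5 and 7517 in the confluent and starved arrays.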

How the results depend on the processing

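Against cycling cells the count of 8390 probe sets became 4830 with the W-linked level as a covariate, 3174 higher and 1656 lower. It lay between 6138 and 7997 with 1 array left out and was 7154 in a fit of the compared arrays alone. Against contact-inhibited cells the 4867 became 3171 to 4977 with 1 array left out. Against serum-starved cells the 272 became 596 with the W-linked covariate, 863 in a fit of the compared arrays alone, and 31 to 154 with 1 array left out. With a replicate block the counts were 7638 against cycling and 95 against serum-starved cells. Same-numbered cycling and confluent and starved arrays had residual correlations of 0.065, 0.213 and 0.382. Cycling arrays had -0.192, -0.109 and -0.293 with serum-starved and -0.081, 0.366 and 0.051 with contact-inhibited arrays. Confluent and starved arrays had 0.025, 0.019 and -0.079 with serum-starved and -0.153, 0.134 and -0.045 with contact-inhibited arrays. Whether same-numbered arrays share a batch was not tested. The main fit has no block because the labels do not say that a number marks a shared batch or embryo. No named gene reversed under any of these alternatives, and 37 of 193 were not called with the W-linked covariate. The change moved by over 1.5 times in 40 of the 193 with the W-linked covariate, 18 with an offset of 64, 7 with an offset of 1, 4 with centred arrays and 2 without cycling replicate 3. The causes were not tested. Dim probe sets limit what can be seen, and 3 arrays a group limit precision.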
